A study of Bos taurus with 6 samples.

Results

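The potassium channel genes are the 93 genes, of 27607 in the deposited tables, whose symbol in the authors' comparison table starts with KCN; each was joined to its normalized counts by Ensembl identifier. The measurements are RNA-seq libraries of cattle chondrocytes isolated from the deep zone of articular cartilage, which borders the bone. All cells carried a lentiviral construct from which doxycycline induces bovine CREB5, a leucine zipper transcription factor, and had survived 11 days in G418 (500 µg/ml). All were then kept for 3 days on low attachment plates with 10% FBS, TGFa (100 ng/ml) and TGFb2 (20 ng/ml), without doxycycline (Dox-, 3 libraries) or with it (Dox+, 3 libraries; 1 µg/ml in the treatment protocol, while another text of the series prints the number with another unit). Cells of 3 knees, each collected on its own, were used, and no age or sex of the animals is given. None of these 6 libraries had doxycycline without the CREB5 construct, so an action of doxycycline itself and one of CREB5 cannot be told apart.

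Potassium channels are membrane proteins that let potassium leave the cell, or enter it in some conditions, and so set the resting membrane potential. Voltage-gated channels open when the membrane depolarizes, inward rectifiers pass current best near the resting potential, two-pore-domain channels carry a leak current, and a further class opens when calcium or sodium rises inside the cell. Pore-forming subunits make the channel, and auxiliary subunits change its gating or its transport to the surface. In chondrocytes, which live in a matrix of high and changing osmolarity, such channels are known for their part in the resting potential and in the control of cell volume.

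The libraries held between 20063379 reads (Dox+ 3) and 122366790 reads (Dox+ 2). Where 3 values are given for a group they stand in the order of the library numbers 1, 2 and 3. Values are normalized counts, that is, reads divided by 1 factor per library, and 3 reads were worth between 1.32 (Dox+ 2) and 6.98 (Dox+ 3) normalized counts. CREB5 itself (ENSBTAG00000018909) ranged from 308 to 510 in the Dox- and from 12413 to 21964 in the Dox+ libraries, so no library went against its label. Of 10 chondrocyte markers 9 were measured well enough to test, among them ACAN, COL2A1, SOX9 and HAPLN1, and their summed level was 154231 to 301793 in the Dox- and 102542 to 119732 in the Dox+ libraries. ACAN and COL9A1 of this list were lower in Dox+ cells (limma with Benjamini-Hochberg adjustment, adjusted p = 0.034 and 0.0066), and 4 of the list were lower when same-numbered libraries were set against each other. Over all tested genes, these 2 fits called 0.357% and 1.65% lower. An unadjusted limma p under 0.05 was found for 5 of the 9 tested markers and for 10.6% of all tested genes. ACAN did not pass without Dox- 2, Dox- 3, Dox+ 1 or Dox+ 3 (adjusted p = 0.12, 0.14, 0.0996 and 0.17). CNMD, a further chondrocyte marker, stood under the filter for testing. Fewer chondrocytes and less RNA per chondrocyte cannot be told apart in such libraries.

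The potassium channel genes were sorted by how far they were read. No read was found in any library for 26 of the 93 genes, and 14 more had at most 3 reads in each library. Another 25 had more than 3 reads in at least 1 library but a mean under 10 normalized counts, and 28 had a mean of at least 10 over the 6 libraries and were tested. Reads of between 42 (Dox- 2) and 52 (Dox- 1 and Dox+ 2) of the 93 genes were present in a single library. A mean of at least 100 was reached by 13 genes and a mean of at least 1000 by 3 of them, KCNK6, KCNMA1 and KCNMB4. Normalized counts are not corrected for transcript length, so they compare a gene between libraries and not the levels of different genes.

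**Figure D1:**
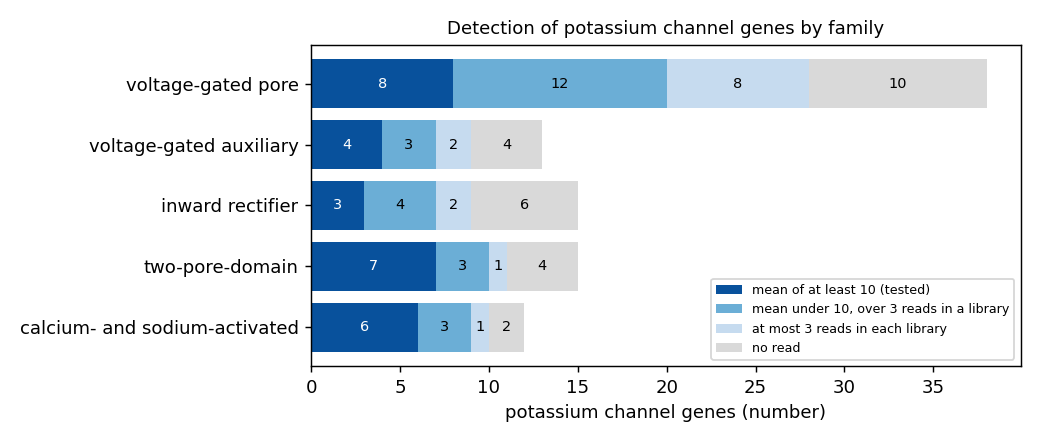
Number of potassium channel genes (horizontal axis) in each of 5 families (vertical axis), split by how far they were detected in the 6 libraries. The two-pore-domain family had 7 tested genes of 15 and the calcium- and sodium-activated family 6 of 12, against 8 of 38 voltage-gated pore genes.

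The tested share was 8 of 38 genes for voltage-gated pore subunits, 4 of 13 for their auxiliary subunits, 3 of 15 for inward rectifiers, 7 of 15 for two-pore-domain channels and 6 of 12 for calcium- and sodium-activated channels with their beta subunits. Genes with no read included KCND2, a fast inactivating channel of brain and heart, KCNJ1, the inward rectifier of the renal tubule, KCNA3, the channel of T lymphocytes, and KCNK18, a leak channel of sensory neurons. A count of 0 allows up to 3 reads, so a level under 1.32 to 6.98 normalized counts could not have been seen, depending on the library. KCNK2, a leak channel gated by membrane stretch, had 4 reads in Dox- 1, 1 in Dox+ 2 and 0 in the other libraries. Of its relatives, KCNK4 had 3 reads in Dox+ 2 and none elsewhere, and KCNK10 had no read at all.

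Compared between Dox+ and Dox- cells, 1 potassium channel gene rose and 2 fell among the 28 tested, in limma on log2(normalized count + 1) with p-values adjusted over all 13180 tested genes and a threshold of 0.05. KCNQ3 rose 100.1-fold, KCNA6 fell 5.96-fold and KCNMB4 fell 2.78-fold; unless stated otherwise, folds and log2 differences are on the scale of normalized count + 1, which understates the change of low genes. Over all tested genes, 2.52% were called higher and 0.357% lower by the same rule. With the replicate number as a block, which sets the 2 libraries of a number against each other, 1 member was higher and 4 were lower, KCNK5 and KCNK17 being added, against 4.86% and 1.65% of all genes. On the recovered reads edgeR called 1 higher and 2 lower (2.31% and 0.296% of all genes), DESeq2 1 and 4 (4.12% and 1.21%) and DESeq2 with the block 1 and 5 (5.64% and 2.32%). An unadjusted p under 0.05 was found for 6 of the 28 members and for 10.6% of all 13180 tested genes. The median difference was -0.24 (log2) over the 28 tested members and -0.0036 over all tested genes.

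KCNQ3 (ENSBTAG00000020667) encodes a pore subunit of the M-current, a slow current that damps the firing of neurons, and can form channels together with KCNQ5. Its normalized counts were 9.20, 7.39 and 1.22 in the Dox- and 609, 547 and 570 in the Dox+ libraries. All 3 Dox+ libraries thus stood far above all Dox- libraries, where the gene was near the limit of detection with 15, 5 and 2 reads. The group means were 5.94 ± 4.18 and 575 ± 31.6 (SD, n = 3), and the log2 difference was 6.65 (SE 0.59, 95% interval 5.31 to 7.98, limma adjusted p = 0.00044). Within the same-numbered pairs the rise was 59.8-, 65.3- and 257-fold, and the last value rests on the 2 reads of Dox- 3. The gene passed the filter for testing through its Dox+ libraries. It was called in all 18 alternatives, with an adjusted p between 1.4e-39 (DESeq2) and 0.0085 (limma without Dox+ 3).

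KCNQ5, its partner, did not pass. It was 112, 158 and 97.8 in the Dox- and 93.1, 93.6 and 167 in the Dox+ libraries, so the groups overlapped throughout. Its log2 difference was -0.08 (95% interval -0.92 to 0.76, limma adjusted p = 0.97). KCNQ1, the channel of heart and epithelia, was under the filter with 0 to 14.0 normalized counts.

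**Figure D2:**
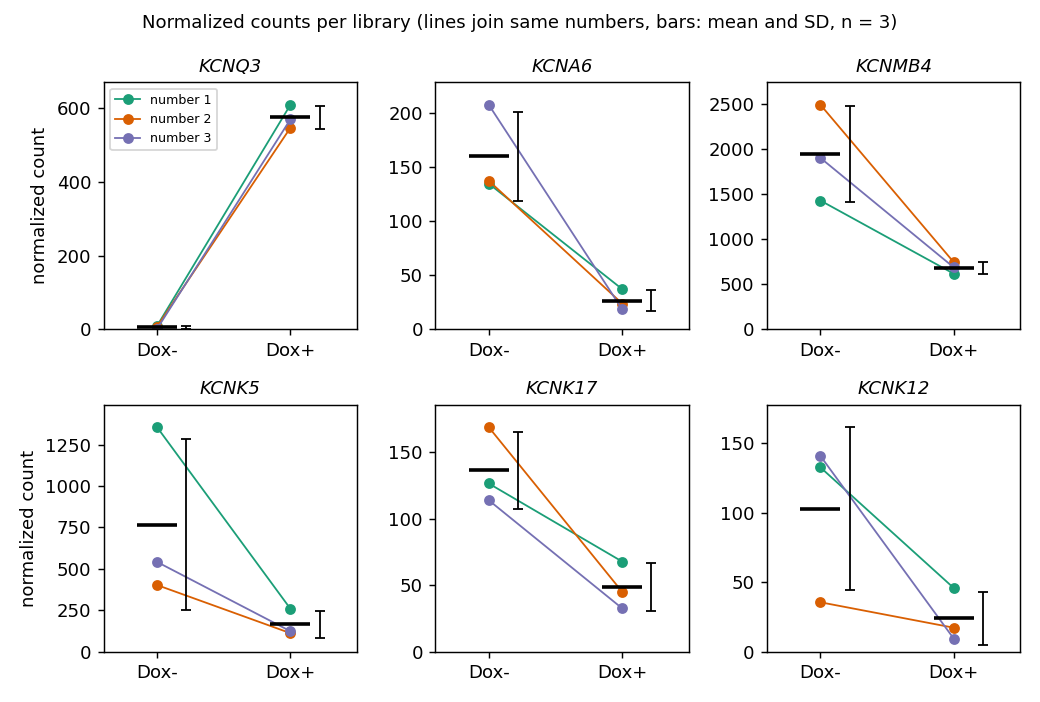
Normalized counts (vertical axis, from 0, own scale in each panel) of the 6 potassium channel genes called by at least 1 fit, in Dox- and Dox+ libraries (horizontal axis); points are libraries, coloured lines join libraries of the same number, and black bars give mean and SD (n = 3). KCNQ3 lies under 10 in each Dox- library and above 500 in each Dox+ library, while the other 5 genes are lower with doxycycline in every same-numbered pair.

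KCNA6 (ENSBTAG00000047191), a delayed rectifier best known from neurons, was the voltage-gated pore gene that fell. It stood at 135, 138 and 208 in the Dox- and at 37.2, 23.8 and 18.6 in the Dox+ libraries, with no overlap between the groups. The means were 160 ± 41.4 and 26.6 ± 9.61 (SD, n = 3). The log2 difference was -2.57 (SE 0.41, limma adjusted p = 0.011; with the block, 0.0031), and within the pairs the fall was 3.55-, 5.58- and 10.7-fold. Without Dox- 3 the limma adjusted p was 0.060 and without Dox+ 3, where 8 reads were counted, it was 0.067. The neighbouring potassium channel genes of the same subfamily were hardly read: KCNA1 had 13, 1 and 0 reads in the Dox- and 9, 0 and 0 in the Dox+ libraries, and KCNA5 had none.

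The other 6 tested voltage-gated pore genes did not pass, with log2 differences between -0.78 and 0.82. KCND1, a fast inactivating channel and the member of this family with the most counts, was 369, 457 and 600 in the Dox- and 371, 451 and 426 in the Dox+ libraries. The ranges overlapped and the log2 difference was -0.17 (95% interval -0.75 to 0.41). KCNH2, the channel of cardiac repolarization, was 150, 319 and 456 against 420, 336 and 465, a log2 difference of 0.53 (95% interval -0.38 to 1.43). KCNC4 was 123, 120 and 148 in the Dox- and 44.0, 117 and 81.4 in the Dox+ libraries. It was lower in 3 of 3 pairs and the groups did not overlap, by 120 against 117 at their nearest, but it missed the threshold (limma adjusted p = 0.61; with the block, 0.31). KCNG1, a silent subunit that works only beside other pore subunits, differed by -0.65 and KCNH3, a channel of the forebrain, by 0.82 (log2, limma adjusted p = 0.80 and 0.85).

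Of the auxiliary subunits of voltage-gated channels 4 were tested and 0 passed in limma, with the block, in edgeR or in DESeq2, and 0 had an unadjusted p under 0.05 (10.6% of all tested genes). KCNE4, a small membrane subunit that inhibits several channels and had the most counts of this family, was 354, 319 and 279 in the Dox- and 291, 532 and 346 in the Dox+ libraries. The groups overlapped (log2 difference 0.26, 95% interval -0.40 to 0.91). KCNAB1, a cytoplasmic beta subunit, was 15.9, 79.9 and 19.6 against 5.08, 20.7 and 2.33. It was lower in each pair, yet Dox+ 2 stood above both Dox- 1 and Dox- 3, and both libraries numbered 2 were the highest of their group. The log2 difference of -2.001 (95% interval -4.04 to 0.04) missed the threshold (limma adjusted p = 0.49; with the block, 0.062). The related KCNAB2 lay between 162 and 251 in all 6 libraries (log2 difference -0.03, 95% interval -0.69 to 0.62), and KCNAB3 differed by 0.79 (limma adjusted p = 0.78).

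The inward rectifiers had the fewest counts of the families. KCNJ8, the pore of an ATP-sensitive channel, was 68.1, 51.8 and 78.3 in the Dox- and 32.2, 48.5 and 62.8 in the Dox+ libraries. It was lower in 3 of 3 pairs, but the groups overlapped and it did not pass (log2 difference -0.49, 95% interval -1.44 to 0.46, limma adjusted p = 0.83). ABCC9, the sulfonylurea receptor that partners this pore, stood under the filter, with 18, 5 and 1 reads in the Dox- and 4, 1 and 1 in the Dox+ libraries. KCNJ2, the classical strong rectifier of muscle, was 30.7, 16.3 and 2.45 against 16.9, 24.3 and 44.2, and it went down in pair 1 and up in pairs 2 and 3. Its relative KCNJ12 differed by 0.98 (log2, 95% interval -0.35 to 2.31) and was higher in 3 of 3 pairs. Whether reads of KCNJ12 are shared with near-identical copies was not tested, so its value is uncertain. Of the 3 tested inward rectifiers 0 passed in limma, with the block, in edgeR or in DESeq2, and 0 had an unadjusted p under 0.05, a share that is 10.6% over all tested genes.

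**Figure D3:**
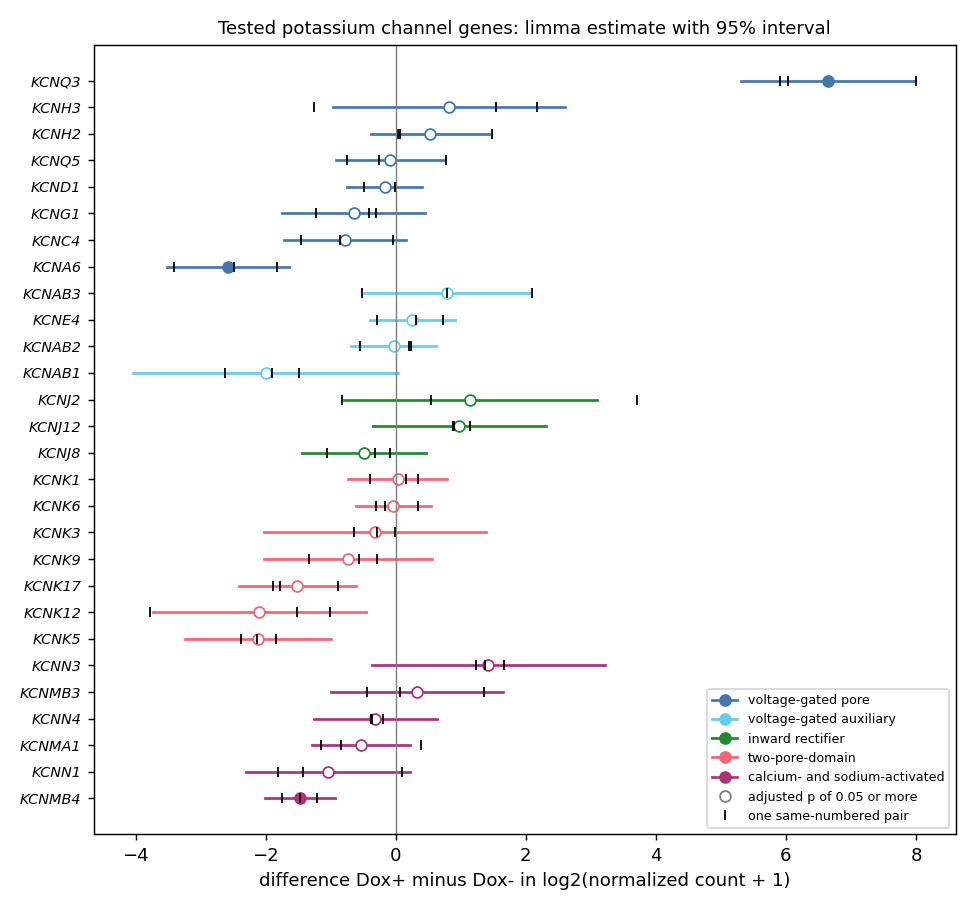
Difference between Dox+ and Dox- cells in log2(normalized count + 1) (horizontal axis) for the 28 tested potassium channel genes (vertical axis), coloured by family, with limma's 95% interval; filled points had an adjusted p under 0.05, and black ticks are the 3 same-numbered pairs. Only KCNQ3, KCNA6 and KCNMB4 are filled, and 5 of the 7 two-pore-domain genes have all ticks below 0 (19.0% of all tested genes were lower in 3 of 3 pairs).

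Two-pore-domain channels were tested for 7 genes, of which 1 had a difference above 0 and 6 below it. In limma without the block 0 of them passed, 3 had an unadjusted p under 0.05 (10.6% of all tested genes did), and edgeR also called 0. With the block limma called 2 lower (1.65% of all tested genes), DESeq2 called the same number (1.21%), and DESeq2 with the block called 3 (2.32%). For the 3 genes that any of these fits called, the blocked values stand beside the gene; for the other 4 the limma adjusted p with the block was 0.55 to 0.96. The counts of this family summed to 3959, 3135 and 4379 in the Dox- and 2422, 3359 and 3218 in the Dox+ libraries, so the sums of the groups overlapped.

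KCNK5 (ENSBTAG00000011112), a leak channel opened by alkaline pH outside the cell and known for volume regulation, was 1356, 402 and 542 in the Dox- and 259, 112 and 123 in the Dox+ libraries. The groups did not overlap, and number 1 was the highest library in both. The means were 767 ± 515 and 165 ± 81.9 (SD, n = 3), and the fall was 5.22-, 3.58- and 4.37-fold within the pairs. The log2 difference of -2.12 (95% interval -3.24 to -0.998) had a limma adjusted p of 0.067 without the block and 0.00042 with it, and DESeq2 gave 0.00031.

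KCNK17 (ENSBTAG00000010328), a further alkaline-activated leak channel, was 126, 169 and 114 in the Dox- and 67.7, 45.0 and 32.6 in the Dox+ libraries, with no overlap. The log2 difference was -1.52 (95% interval -2.42 to -0.62, limma adjusted p = 0.11; with the block, 0.028), and the ratio within the pairs was 1.85-, 3.69- and 3.42-fold downward. In RefSeq's gene order of ARS-UCD2.0, another build than that of the files, KCNK17 lies next to KCNK5, followed by KCNK16, the third member of the alkaline-activated group, which had no read. Their nearest tested neighbours of other families on either side, SAYSD1 and KIF6, did not pass (log2 difference -0.57 and 1.69, limma adjusted p = 0.77 and 0.67, and 0.40 and 0.26 with the block).

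KCNK12, a silent member of the family, was 132, 35.5 and 141 in the Dox- and 45.7, 17.2 and 9.30 in the Dox+ libraries. It was lower in each pair, by 2.86-, 2.00- and 13.7-fold, but Dox- 2 lay below Dox+ 1. The limma adjusted p was 0.27 and, with the block, 0.0503, and DESeq2 with the block was the one fit that called it (adjusted p = 0.012). Only 4 reads were counted in Dox+ 3.

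KCNK6 and KCNK1, related leak channels, had differences near 0. KCNK6, with the most counts of any member, was 1747, 1844 and 2832 in the Dox- and 1565, 2347 and 2293 in the Dox+ libraries, and its log2 difference was -0.04 (95% interval -0.61 to 0.54). KCNK1 differed by 0.03 (95% interval -0.73 to 0.79). KCNK3, an acid-inhibited leak channel described here because of how it differed between numbers, a choice made after its values were seen, was 118, 37.0 and 157 in the Dox- and 117, 23.4 and 128 in the Dox+ libraries. Both libraries numbered 2 were thus low, whatever the treatment, and the difference between the groups was -0.32 (95% interval -2.02 to 1.39). KCNK9, the closest relative of KCNK3, differed by -0.73 and was lower in 3 of 3 pairs (limma adjusted p = 0.81).

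**Figure D4:**
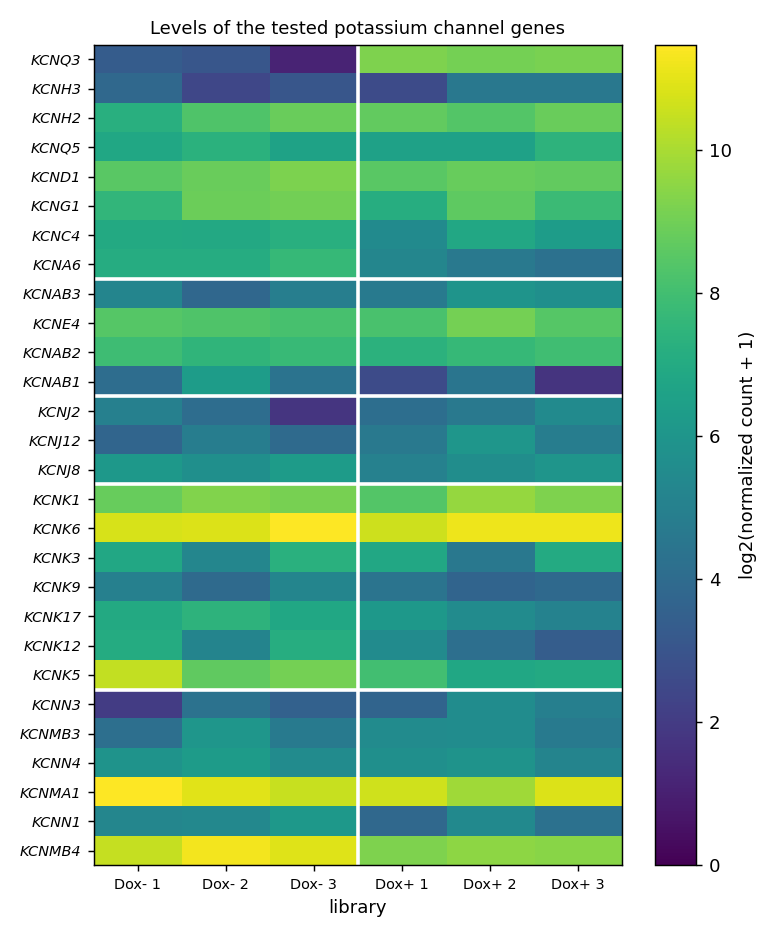
Levels as log2(normalized count + 1) (colour) of the 28 tested potassium channel genes (vertical axis, families separated by white lines) in each of the 6 libraries (horizontal axis); counts are not corrected for length, so colours compare libraries within a gene. KCNQ3 is dark in the 3 Dox- libraries and bright in the 3 Dox+ libraries, and KCNK3 is darker in both libraries numbered 2.

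Among the calcium- and sodium-activated channels, KCNMB4 (ENSBTAG00000003749) fell. It encodes an auxiliary beta subunit that slows the opening of the large-conductance calcium-activated channel and is best known from brain. Its counts were 1428, 2491 and 1901 in the Dox- and 616, 743 and 686 in the Dox+ libraries. Every Dox+ library lay below every Dox- library, and the spread was smaller in Dox+ cells (1940 ± 532 against 682 ± 63.5, SD, n = 3). The log2 difference was -1.48 (SE 0.24, 95% interval -2.02 to -0.93, limma adjusted p = 0.012; with the block, 0.0011). Leaving out Dox+ 1 or Dox+ 3 gave an adjusted p of 0.052 or 0.075.

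KCNMA1, the pore subunit that KCNMB4 joins, was 2845, 2003 and 1443 in the Dox- and 1594, 905 and 1898 in the Dox+ libraries. It went down in pairs 1 and 2 and up in pair 3, and the groups overlapped. The log2 difference was -0.53 (95% interval -1.28 to 0.23, limma adjusted p = 0.72; with the block, 0.40). Whether the 2 subunits differ in their response was not tested. Of the other beta subunits, KCNMB3 differed by 0.33 (limma adjusted p = 0.92), KCNMB1 had at most 3 reads in any library and KCNMB2 had none.

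The small- and intermediate-conductance channels of this family did not pass. KCNN3 was 3.07, 19.2 and 11.0 in the Dox- and 11.8, 46.3 and 30.2 in the Dox+ libraries, higher in 3 of 3 pairs by 3.16-, 2.34- and 2.60-fold, with a log2 difference of 1.42 (95% interval -0.37 to 3.22, limma adjusted p = 0.64; with the block, 0.18). Its ranges overlapped because number 1 was low in both groups. KCNN1 differed by -1.05 and KCNN4, the channel of red cells and lymphocytes, by -0.32 (limma adjusted p = 0.62 and 0.89). KCNN2 was under the filter, with 4, 0 and 3 reads in the Dox- and 21, 15 and 1 in the Dox+ libraries.

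Across the 28 tested members, 12 were lower and 4 higher in 3 of 3 same-numbered pairs, against 19.0% and 19.5% of all tested genes. Summed over all 93 genes, the normalized counts were 10285, 10236 and 10634 in the Dox- and 7167, 8211 and 8802 in the Dox+ libraries, so each Dox+ library lay below each Dox- library. The 12 genes of the calcium- and sodium-activated family alone summed to 4406, 4700 and 3503 against 2383, 1853 and 2718. Both separations rested on KCNMB4: without it, a sum added after the values were seen, all members summed to 8857, 7745 and 8733 against 6551, 7469 and 8116, and the family to 2978, 2210 and 1602 against 1767, 1110 and 2032, with overlap in both. The authors' deposited table, which gives an adjusted p for 43 of the 93 genes, had 1 higher and 5 lower at 0.05 against 5.24% and 2.05% of its genes. In the authors' deposited table the 5 lower genes were KCNK5 (adjusted p = 2.8e-13), KCNMB4 (5.7e-09), KCNA6 (1.9e-06), KCNK17 (0.0095) and KCNK12 (0.011), and the higher one was KCNQ3 (1.0e-39).

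For the 22 tested members that no fit called, the intervals were wide. The whole 95% interval lay within a 2-fold change either way for 6 of them, and their interval widths ran from 1.15 to 4.07 on the log2 scale. In the other 16 a change of 2-fold lay inside the interval, so this fit could not tell it from no change. These intervals are of limma without the block, which does not use the pairs, and intervals with the block are not given here.

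Of 39 other genes of potassium transport that were listed for comparison (37 with a row in the tables), 19 were tested. In limma 2 rose and 0 fell, against 2.52% and 0.357% of all tested genes. ATP1B1 (ENSBTAG00000002688), a beta subunit that helps to bring the sodium-potassium pump to the membrane, rose 7.10-fold. It was 1007, 1412 and 813 in the Dox- and 9170, 5584 and 8097 in the Dox+ libraries, with no overlap (log2 difference 2.83, SE 0.26, limma adjusted p = 0.00058). The alternative beta subunit ATP1B3 was 2190, 2134 and 2586 against 2147, 3205 and 2681, so its groups overlapped, and it differed by 0.20 (95% interval -0.25 to 0.66). ATP1B1 was called in all 18 alternatives.

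DPP10, an auxiliary protein of the fast inactivating channels to which KCND1 belongs, had no read in the Dox- libraries and 8, 23 and 16 reads in the Dox+ libraries, that is 13.5, 10.2 and 37.2 normalized counts. With each Dox- library set to a floor of 3 reads, its mean was at least 7.51-fold higher as a plain ratio of normalized counts. The limma fit used no such floor and took the Dox- values as 0 (log2 difference 4.20, adjusted p = 0.041, and 0.013 with the block). DPP10 passed the filter for testing only through its Dox+ libraries. Leaving out Dox- 1, 2 or 3 gave an adjusted p of 0.068, 0.10 or 0.12 and leaving out Dox+ 2 one of 0.069, and without Dox+ 1 or Dox+ 3 the gene fell under the filter. SLC12A7, a potassium-chloride cotransporter, was 42.3, 87.3 and 28.1 against 124, 168 and 114, higher in 3 of 3 pairs with no overlap. It did not pass in limma (log2 difference 1.48, adjusted p = 0.20) and passed with the block (adjusted p = 0.030). HCN2, a channel for sodium and potassium opened by hyperpolarization, was 979, 1791 and 1853 against 1056, 1828 and 1630 (log2 difference -0.02, 95% interval -0.71 to 0.68). TMEM175, a potassium channel of lysosomes, was 484, 646 and 754 against 359, 497 and 435, lower in 3 of 3 pairs, and did not pass (log2 difference -0.53, limma adjusted p = 0.53).

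**Figure D5:**
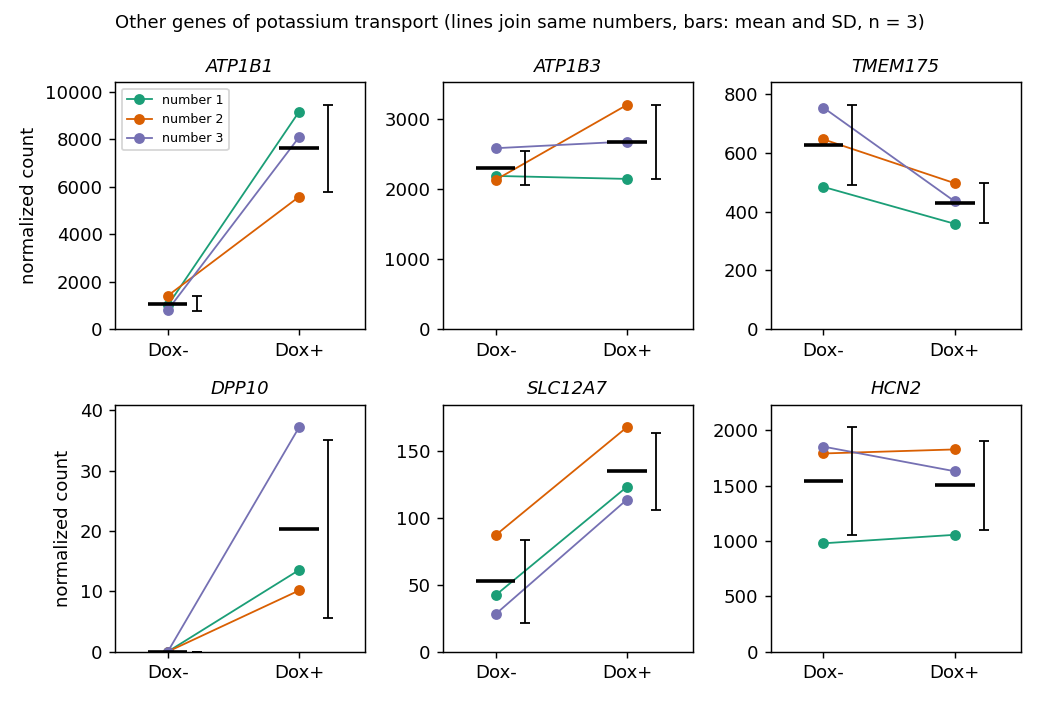
Normalized counts (vertical axis, from 0, own scale in each panel) of 6 other genes of potassium transport in Dox- and Dox+ libraries (horizontal axis); points are libraries, lines join libraries of the same number, and black bars give mean and SD (n = 3). ATP1B1 is at 5584 or more in each Dox+ library and at 1412 or less in each Dox- library, while the ranges of ATP1B3, TMEM175 and HCN2 overlap between the groups.

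Pore genes of voltage-gated sodium and calcium channels were read in the same way. Of 20 such genes 8 were tested, and 0 passed in limma, edgeR or DESeq2. In limma 2.52% of all tested genes were called higher and 0.357% lower. Limma with the block called 1 of the 8 lower, against 1.65% of all tested genes. At an unadjusted p under 0.05 there were 2 of the 8, against 10.6% of all tested genes. CACNA1D, an L-type calcium channel, was 39.2, 73.9 and 73.4 in the Dox- and 15.2, 17.2 and 25.6 in the Dox+ libraries (log2 difference -1.61, limma adjusted p = 0.17; with the block, 0.049). The T-type channel CACNA1H was 778, 751 and 842 against 1279, 1037 and 1086 (adjusted p = 0.32), and CACNA1G differed by 0.41 (adjusted p = 0.88).

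Several of the genes named above are best known from neurons, glia or muscle, so markers of those cells were read beside them. Of 7 neuronal markers 2 were tested and 0 were called in limma, with the block, in edgeR or in DESeq2 (0 at an unadjusted p under 0.05, against 10.6% of all tested genes), 2 (STMN2 and ELAVL4) had no read, and RBFOX3 and NEFM had no value above 1.77 normalized counts. The summed level of the 7 was 485 to 819 in the Dox- and 503 to 1134 in the Dox+ libraries, most of it from SNAP25 and TUBB3. SYT1 of this list had no read in the Dox- and 5, 7 and 3 reads in the Dox+ libraries. Of 6 markers of glia and Schwann cells 3, MBP among them, had no read, SOX10 had 1 read in all, and the sum of 13190 to 19320 against 10707 to 15764 came mainly from S100B, which cartilage also expresses. GFAP of this list was lower in Dox+ cells (limma adjusted p = 0.014, but 0.060 without Dox- 2 and 0.058 without Dox- 3). MYH1, MYH2, MYOD1 and MYOG of 5 skeletal muscle markers had no read, and ACTN2 was 3.07, 2.96 and 0 against 28.8, 18.1 and 27.9 (limma adjusted p = 0.080; with the block, 0.023). ACTN2 passed the filter for testing only through its Dox+ libraries and was near the limit of detection in the Dox- libraries.

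Of the tested endothelial, leukocyte, osteoblast and synovial lining markers (3, 3, 2 and 3 genes) 0 were called in limma, with 0, 0, 1 and 3 at an unadjusted p under 0.05, against 10.6% of all tested genes. With the block 2 osteoblast markers (SP7 and ALPL) and 1 synovial marker (THY1) were lower, and 0 of the others were called. By that fit 1.65% of all tested genes were lower and 4.86% higher. PTPRC, the common leukocyte antigen, had at most 3 reads in any library, and CDH5, the endothelial cadherin, had 6 reads in Dox- 1 and 0 elsewhere. The summed level was 131 to 294 against 153 to 225 for 5 endothelial, 204 to 460 against 381 to 714 for 5 leukocyte, 867 to 2857 against 301 to 1352 for 4 osteoblast and 27843 to 56354 against 14301 to 28187 for 4 synovial markers. Smooth muscle markers summed to 2337 to 7953 against 5670 to 16972, most of it from DES. ACTA2 was lower (limma adjusted p = 0.0031), DES was higher with the block (adjusted p = 0.0014, and 0.36 without it), MYH11 had at most 6 reads in any library, and RGS5 had no read in the Dox- and 6, 14 and 2 reads in the Dox+ libraries. The part of these cell types in the changes of potassium channel genes was not tested.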

How the data were processed

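Per the labels' protocols, RNA was extracted with Trizol and libraries were made with KAPA mRNA HyperPrep kits. The deposited gene signal is counts that the authors divided by 1 size factor per library. Within a library all values were multiples of 1 step, which gave back the reads (100% of values above 0 whole within 0.01 read). Per the submitters' processing notes, which give no roles, the tools were STAR 2.5.2b, Salmon, DESeq2, FastQC 0.11.3 and MultiQC 1.2, with builds bosTau9 and ARS-UCD1.2. No source used here gives the annotation version or strand setting, so overlapping genes on opposite strands cannot be told apart. The authors' deposited comparison table gives log2 fold changes with standard errors, p-values and adjusted p-values; no source used here says whether the fold changes are shrunken.

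The test was limma 3.58.1 (R 4.3.3; two-sided, lmFit and eBayes, variance trend on) on log2(normalized count + 1) in genes with a mean of at least 10 over the 6 libraries, with Benjamini-Hochberg adjustment; the added 1 shrinks changes of low genes. The alternatives were pseudocounts of 0.5 and 5, filters at 1, 50 and none, no variance trend, TMM scaling, edgeR 4.0.16 and DESeq2 1.42.0 on the recovered reads, the replicate block, and leaving out each library. Scripts were tested on simulated counts. With 3 libraries per group, p-values, intervals and floors cover counting error or the spread between these libraries only. Deviations of same-numbered libraries from their group means correlated at 0.65, 0.44 and 0.21 over the tested genes, so the numbers were taken as pairs. Libraries of different numbers gave -0.59 to 0.18, the highest for Dox- 3 with Dox+ 2, which is close to the 0.21 of number 3. The labels do not say that libraries of the same number share a knee, so the pairing is an assumption of the fits with the block. No 2 libraries of a group agreed within sampling noise (chi-square per degree of freedom 54.8 to 414). The members and lists were chosen with earlier results of these data known. Members called by limma, the block, edgeR or DESeq2, the member with the most counts per family, the 3 largest changes not called and the smallest p of the other lists are given by library. Further genes given by library or by reads, among them KCNQ5, KCNH2, KCNC4, KCNK3, ATP1B3, HCN2 and the marker genes, were chosen after their values were seen. Some genes of the lists are not reported here by name.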

Additional observations from a re-analysis of the deposited data

How the results depend on the processing

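Of 407 values of 23 genes chosen by the rule over 18 alternatives, 382 kept direction and side of the threshold, 9 lost the call, 13 gained it and 3 turned in sign. Those 3 belong to genes near 0: with 1 library left out, KCND1 ran from -0.34 to 0.014 (without Dox- 3) and KCNK6 from -0.17 to 0.18 (without Dox- 3; 0.15 without Dox+ 1) on the log2 scale. The replicate block changed the count of potassium channel genes called lower from 2 to 4 in limma, with 4 in edgeR with the block, 4 in DESeq2 without it and 5 in DESeq2 with it; for two-pore-domain genes these counts were 2, 2, 2 and 3 against 0. Over all genes 332 were higher and 47 lower; with the block 640 and 218, in edgeR with the block 591 and 190, in DESeq2 542 and 159, in DESeq2 with the block 743 and 306, and 23 were lower without the variance trend. Leaving out each library in turn gave 138 to 364 higher and 9 to 72 lower genes; 0 to 2 potassium channel genes were lower, 1 to 2 voltage-gated pore genes and 0 to 1 calcium- and sodium-activated genes were called, and the call of KCNQ3 was kept. Without Dox+ 3, the library with the fewest reads, KCNQ3 was the one potassium channel gene called. Among the other genes of potassium transport 1 instead of 2 was called with a pseudocount of 5, with a filter at 50 and with any library left out (1 to 1), and 5 in DESeq2 with the block. Of sodium and calcium channel genes 1 instead of 0 was called in limma with the block. Beyond KCNK5, KCNK17, SLC12A7, CACNA1D and the marker genes named, the replicate block in limma changed no call of a named gene. TMM scaling moved the median of all genes from -0.0036 to -0.0039. The 25 members under the filter with more than 3 reads in some library were left out of the main fit because of their low counts. With no filter the potassium channel genes called stayed at 1 higher and 2 lower.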
